A study of Mus musculus with 6 samples.

Results

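Transcripts of brown and white fat were followed across thymus RNA of Rag2/pfp KO mice and wild-type mice. The set held 42 genes of adipocytes, taken by symbol from the platform annotation, out of 16593 genes named on the array. It was divided by role into 15 brown-enriched and oxidative genes, 20 general adipocyte genes and 7 genes of fatty acid and triglyceride synthesis. A probe was present for 37 of the 42 genes (43 probes in all), and the array annotation used here listed none for Otop1, Gk, Cfd, Adrb3 and Acsl1. Of the 37 genes, 33 were above background on at least 1 of the 6 arrays, which here means a detection p under 0.05.

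The study compared 3 thymus samples labelled Rag2/pfp KO with 3 labelled wild type, each on 1 Illumina MouseRef-8 version 2 bead array. Rag2 is needed to assemble antigen receptor genes, and Pfp is an older symbol of Prf1, the perforin gene of cytotoxic lymphocytes. Age, sex, strain and any treatment are not given in the labels, nor is it stated that the samples came from separate animals, so the p-values reflect only differences among these 6 samples, which can be technical. The extraction text of all 6 samples, wild type included, names the Rag2/pfp mouse as the source of the thymus. The arrays are called knockout 1 to 3 and wild type 1 to 3 after the replicate numbers in the titles.

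Between 13729 and 13878 of 25697 probes were above background on each array, and the median signal per array ran from 172 to 186 units. The Rag2 probe read 6.98, 6.73 and 7.88 on the knockout arrays and 9.17, 8.17 and 8.78 on the wild-type arrays (normalized log2 signal; limma adjusted p = 0.0579). The sources used here do not place the probe relative to the deleted part, and its signal does not check the labels. The brighter Prf1 probe differed by −0.64 (SE 0.19, limma adjusted p = 0.0866) and the other by 0.06 (SE 0.24, limma adjusted p = 0.896). Of the thymocyte markers, Cd3e stood between 13.19 and 14.07 on every array, and Cd4 was above background on 1 knockout array and on all wild-type arrays. Knockout minus wild type was −8.52 and −7.32 for the Cd8b1 probes, −2.13 for Rag1 and 1.83 for Ptcra. Cd8a was not above background on any array. Xist was low and the Y-linked Eif2s3y high on knockout 3 and wild type 2, with the opposite on the other arrays.

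Adipocytes store triglyceride in lipid droplets and release it as fatty acids. White adipocytes hold mainly 1 large droplet and secrete hormones such as leptin and adiponectin. Brown adipocytes hold many small droplets and many mitochondria, and burn fatty acids for heat through uncoupling protein 1. Adipocytes of the mediastinum lie beside the thymus, and fat also accumulates within the organ with age.

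The upstream sequence of 4 genes is given because they stand for the 2 patterns described below. Ucp1, the uncoupling protein that marks brown adipocytes, and Cox7a1, a cytochrome c oxidase subunit of heart, muscle and brown fat, represent the brown-enriched genes. Adipoq, which encodes the hormone adiponectin, and Plin1, which encodes the perilipin coat protein of lipid droplets, represent the general genes. Plin1 is a general gene by role, but it exceeded most general genes in wild type 3 minus wild type 1 (1.13). Each line holds the 250 bases before the transcript start, 5′ to 3′ on the strand of the gene, from RefSeq on GRCm38.p6, with matches to the searched motifs in capitals. The regions are chr8:83290098-83290347 (plus strand) for Ucp1, chr7:30183921-30184170 (plus strand) for Cox7a1, chr16:23146286-23146535 (plus strand) for Adipoq and chr7:79732777-79733026 (minus strand) for Plin1.
Ucp1: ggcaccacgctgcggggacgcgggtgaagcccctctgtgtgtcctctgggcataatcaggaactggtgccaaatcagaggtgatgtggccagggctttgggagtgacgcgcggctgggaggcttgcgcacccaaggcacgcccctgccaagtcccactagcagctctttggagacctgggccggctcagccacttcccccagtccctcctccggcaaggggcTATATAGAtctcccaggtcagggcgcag
Cox7a1: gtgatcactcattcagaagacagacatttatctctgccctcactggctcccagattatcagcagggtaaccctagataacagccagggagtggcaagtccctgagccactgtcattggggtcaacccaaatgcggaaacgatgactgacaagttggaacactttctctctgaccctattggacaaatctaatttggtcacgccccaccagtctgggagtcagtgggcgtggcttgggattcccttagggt
Adipoq: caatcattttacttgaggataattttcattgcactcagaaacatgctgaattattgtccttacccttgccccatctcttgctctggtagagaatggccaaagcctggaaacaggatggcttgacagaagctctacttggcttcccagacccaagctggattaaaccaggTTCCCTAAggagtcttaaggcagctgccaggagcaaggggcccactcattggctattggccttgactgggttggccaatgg
Plin1: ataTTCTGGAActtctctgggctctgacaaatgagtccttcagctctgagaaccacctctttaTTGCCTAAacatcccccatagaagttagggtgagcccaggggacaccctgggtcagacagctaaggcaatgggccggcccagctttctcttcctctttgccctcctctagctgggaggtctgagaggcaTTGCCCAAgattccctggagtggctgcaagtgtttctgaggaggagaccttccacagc

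Motifs were searched on both strands in these upstream windows and in all 32851 windows of the RefSeq promoter table, in which 29 of the 42 genes matched with 35 windows. The TATA motif TATANA was present in 22.6% of all windows, in 2 of 12 brown-enriched windows, in 4 of 19 general windows and in 1 of 4 synthesis windows. The Ucp1 window held overlapping TATATA and TATAGA, 28 to 21 bases before the start. A C/EBP-type motif, TTNNGNAA, was present in 36.8% of all windows, in 9 of 19 general windows, in 3 of 12 brown-enriched windows and in 0 of 4 synthesis windows. The Adipoq window held 1 such match and the Plin1 window 3. A motif of the cyclic AMP response element type, TGACGNNA, was present in 5.66% of all windows, 1 of them brown-enriched (Dio2) and 1 general (Pck1). The shorter half-site TGACG was not searched alone. The Ucp1 window holds TGACG followed by CGC, which lacks the final A and is not a match. The extended half-site TNAAGGTCA, which contains the nuclear receptor half-site AGGNCA, occurred in 1.14% of all windows. DR1, a pair of those half-sites 1 base apart, occurred in 0.338%. Neither of the last 2 was found in a window of the set, and the Cox7a1 window held none of the 5 motifs. The motifs and the 4 genes were chosen after the signals were seen, and a match is a match of letters only.

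The fat transcripts split the arrays in a way that crossed the genotypes. They were high on knockout 2, wild type 2 and knockout 1 and low on wild type 1, knockout 3 and wild type 3. Of 31 genes tested (above background on at least 3 arrays, 1 brightest probe per gene), 30 had their 3 highest values on knockout 1, knockout 2 and wild type 2, against 13.1% of all tested probes. The exception was Acly. Pck1 passed the detection filter only through those 3 arrays, so its agreement follows from the filter. A range over the 6 arrays of at least 2 on the log2 scale, or 4-fold, was reached by 33 of 35 tested probes of the set, against 15.0% of all 14097 tested probes. Over the 4 arrays left without replicate 2 of either genotype, 22 of the 35 still reached it, against 6.16%. The pattern was noticed in the data, so these counts describe it.

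**Figure D1:**
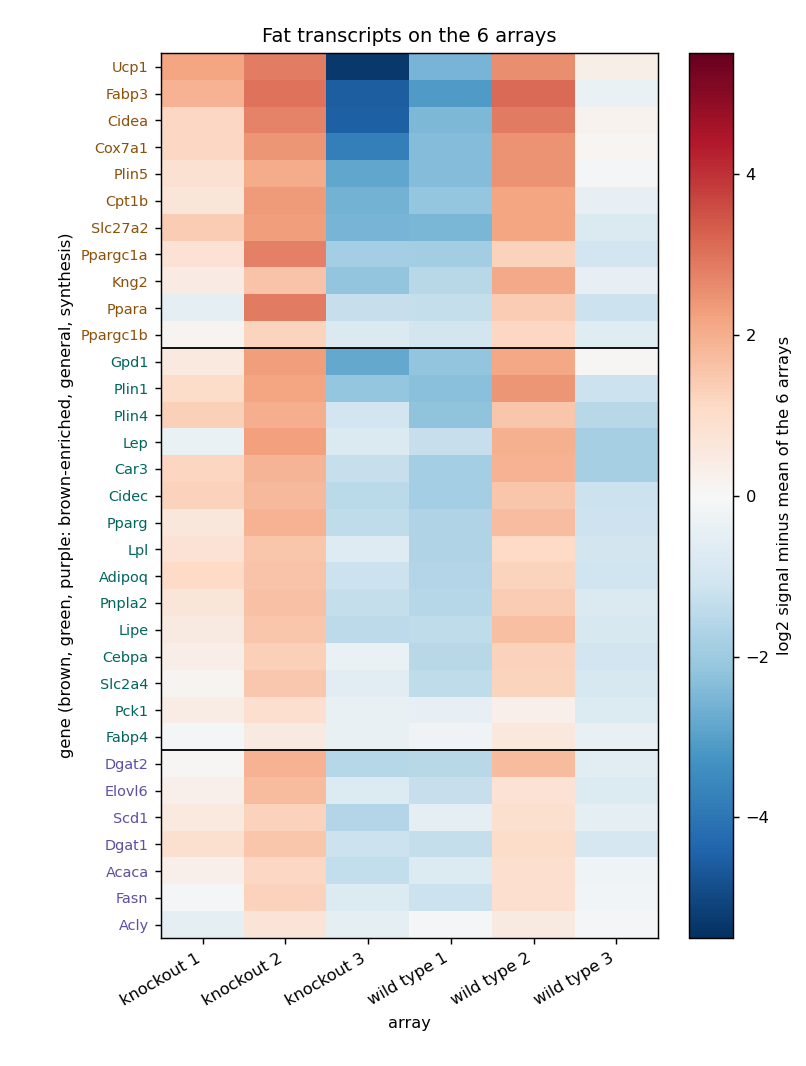
Colour shows the normalized log2 signal of 33 fat genes (rows) on each of the 6 arrays (columns), minus the mean of that gene over the arrays. Knockout 1, knockout 2 and wild type 2 are red in nearly all rows, and of the 10 tested brown-enriched genes 8 are lowest on knockout 3 and 2 on wild type 1.

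Of the whole set, the brown marker Ucp1 had the widest range over the arrays. Ucp1 read 13.62, 14.24 and 6.13 on knockout 1, 2 and 3 and 8.88, 14.01 and 11.75 on wild type 1, 2 and 3. This is a 277-fold spread between knockout 2 and knockout 3 after background correction, against 101-fold in the deposited signals, and Ucp1 was above background on all 6 arrays. Cidea, a lipid droplet protein enriched in brown fat, read 12.56, 14.14 and 6.92 on the knockout arrays and 8.95, 14.26 and 11.61 on the wild-type arrays. Plin5, a droplet coat protein of oxidative tissues, read 9.50, 10.73 and 5.83 on the knockout arrays and 6.28, 11.14 and 8.56 on the wild-type arrays with its brighter probe. In these 3 genes wild type 3 stood between the high and the low arrays, and the genotypes overlapped.

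Genes of fatty acid transport and oxidation followed the same order. Fabp3, a fatty acid binding protein of heart and brown fat, read 12.59, 13.66 and 6.15 on the knockout arrays and 7.55, 13.76 and 10.28 on the wild-type arrays. Slc27a2, a fatty acid transporter and acyl-CoA synthetase, read 10.61, 11.51 and 6.64 and then 6.68, 11.39 and 8.43. Cpt1b, the muscle and brown fat enzyme that commits fatty acids to mitochondrial oxidation, read 10.28, 11.92 and 6.97 on the knockout arrays and 7.46, 11.77 and 9.14 on the wild-type arrays. Its other probe had a range of 5.23, against 4.94 for this one. Cox7a1, whose upstream sequence is shown above, read 12.53, 13.80 and 7.65 on the knockout arrays and 9.02, 13.86 and 11.51 on the wild-type arrays. Kng2, a kininogen gene, read 8.01, 9.13 and 5.40 and then 6.03, 9.63 and 7.09, and was not above background on knockout 3. Kng2 has a close paralog, Kng1, and whether the probe also binds its transcript was not tested.

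Among the regulators, Ppargc1a, the coactivator of mitochondrial biogenesis, read 9.58, 11.55 and 6.94 on the knockout arrays and 6.86, 10.08 and 7.73 on the wild-type arrays. Its relative Ppargc1b varied least of the 10 tested brown-enriched genes, with 10.46, 11.50 and 9.47 on the knockout arrays and 9.26, 11.41 and 9.63 on the wild-type arrays. Ppara, the nuclear receptor of fatty acid oxidation, was above background on knockout 2 (8.71) and wild type 2 (7.24) and between 4.55 and 5.35, at background, on the other 4 arrays. Dio2, the enzyme that activates thyroid hormone, and Elovl3, a fatty acid elongase induced in brown fat, were not above background on any array. Of the markers most specific to brown fat, Ucp1 and Cidea were thus above background on all arrays, and Dio2 and Elovl3 gave no signal above background with the probes used.

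**Figure D2:**
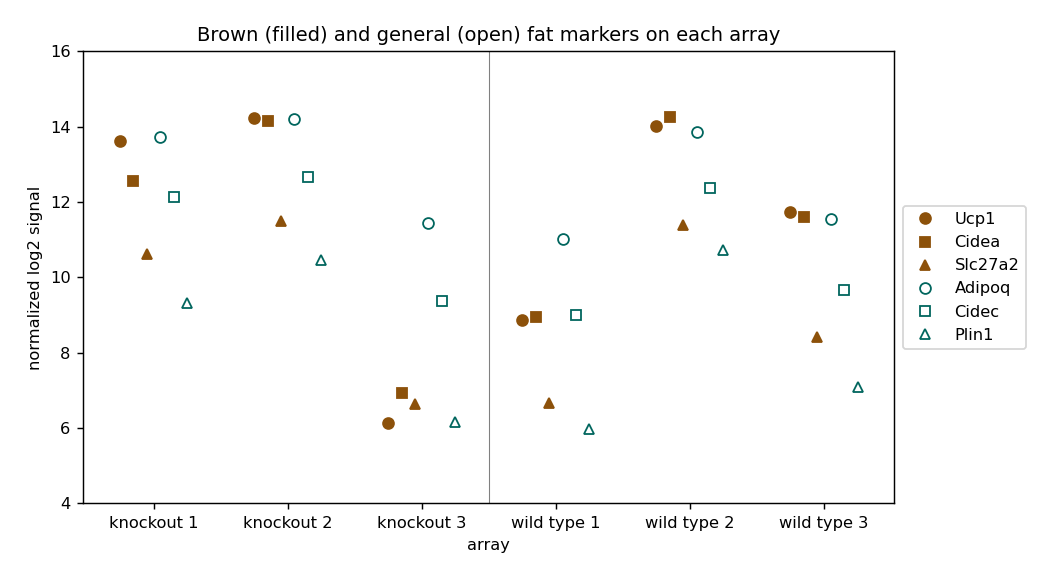
Normalized log2 signal (vertical axis) of 3 brown-enriched genes (filled) and 3 general adipocyte genes (open) on each array, 1 point per gene and array. Ucp1 runs from 6.13 to 14.24 over the arrays and Adipoq from 11.03 to 14.21. Levels of different probes are not compared.

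The general adipocyte genes moved in the same direction over a smaller range. Adipoq read 13.73, 14.21 and 11.43 on the knockout arrays and 11.03, 13.87 and 11.54 on the wild-type arrays, so it was well above background in every sample. Lep, the leptin gene, read 7.97, 10.61 and 7.53 on the knockout arrays and 7.07, 10.30 and 6.52 on the wild-type arrays. On knockout 1, Lep stood 0.44 above its value on knockout 3, nearer to the low arrays than to the high ones.

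Lipolysis and lipid droplet genes came next. Lpl, the lipase that frees fatty acids from circulating lipoproteins, read 14.99, 15.70 and 13.47 on the knockout arrays and 12.51, 15.26 and 13.15 on the wild-type arrays. Pnpla2, which encodes adipose triglyceride lipase, read 14.69, 15.63 and 12.70 and then 12.46, 15.41 and 13.22. Lipe, hormone-sensitive lipase, read 8.03, 9.06 and 6.06 and then 6.11, 9.18 and 6.66 with its brighter probe. The other Lipe probe had a range of 2.06. All 3 lipases were highest on knockout 2 or wild type 2. Plin1 read 9.32, 10.45 and 6.17 on the knockout arrays and 5.97, 10.72 and 7.10 on the wild-type arrays. Plin4, another perilipin, read 13.30, 13.96 and 10.92 and then 9.76, 13.49 and 10.43. Cidec, which promotes droplet fusion, read 12.12, 12.67 and 9.37 on the knockout arrays and 9.0, 12.38 and 9.67 on the wild-type arrays. Cidec, unlike its relative Cidea, was at nearly the same value on knockout 3 and wild type 3.

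The adipocyte transcription factors were Pparg, the nuclear receptor that drives adipocyte differentiation, and Cebpa, its partner. Pparg read 11.54, 12.84 and 9.52 on the knockout arrays and 9.26, 12.65 and 9.80 on the wild-type arrays with its brightest probe. Another Pparg probe ranged from 4.69 to 7.10, and the remaining one was above background on knockout 2 only. Cebpa read 7.13, 8.11 and 6.42 on the knockout arrays and 5.24, 8.05 and 5.74 on the wild-type arrays, and was not above background on wild type 1.

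Metabolic genes of adipocytes completed the group. Car3, a carbonic anhydrase abundant in fat and muscle, read 12.90, 13.60 and 10.44 on the knockout arrays and 9.85, 13.64 and 9.91 on the wild-type arrays. Slc2a4, the insulin-responsive glucose transporter, read 8.41, 9.72 and 7.66 and then 6.87, 9.48 and 7.38. Gpd1, which makes glycerol 3-phosphate for triglyceride, read 11.04, 12.81 and 7.69 on the knockout arrays and 8.35, 12.64 and 10.61 on the wild-type arrays. Gpd1 had the widest range of the general genes (5.12), and its order over the arrays was that of the brown-enriched genes, with knockout 3 lowest. Pck1, an enzyme of glycerol synthesis in fat, had a range of 1.64 and was above background on knockout 1, knockout 2 and wild type 2. Fabp4, the classical adipocyte fatty acid binding protein, was above background on wild type 2 only, between 4.53 and 5.51 in all samples, and Cd36 and Retn were not above background anywhere.

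Synthesis genes varied less. Scd1, the stearoyl-CoA desaturase, read 14.28, 15.01 and 12.14 on the knockout arrays and 13.23, 14.64 and 13.25 on the wild-type arrays. Acaca, acetyl-CoA carboxylase, read 13.04, 13.87 and 11.38 and then 11.98, 13.67 and 12.52. Fasn, fatty acid synthase, read 6.62, 7.97 and 5.94 on the knockout arrays and 5.54, 7.64 and 6.54 on the wild-type arrays. In each of them both arrays of replicate 2 were the highest or among the 3 highest. Elovl6, a fatty acid elongase, read 11.35, 12.81 and 10.35 on the knockout arrays and 9.80, 11.87 and 10.34 on the wild-type arrays. Dgat1 and Dgat2 catalyse the last step of triglyceride synthesis. Dgat1 read 9.95, 10.59 and 7.89 and then 7.76, 10.07 and 8.16. Dgat2 read 12.75, 14.56 and 11.08 on the knockout arrays and 11.14, 14.40 and 12.07 on the wild-type arrays. Acly, which makes cytosolic acetyl-CoA in many cell types, had the smallest range of the tested genes (1.23).

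To compare the groups, a level was computed per array as the mean, over the genes of a group, of the log2 signal minus the mean of that gene over the 6 arrays. The general level, over 15 genes, was 0.63, 1.65 and −1.17 on knockout 1, 2 and 3 and −1.55, 1.46 and −1.03 on wild type 1, 2 and 3. The brown-enriched level, over 11 genes, was 0.93, 2.37 and −2.93 and then −2.12, 2.16 and −0.41. The brown-enriched level spanned 5.29, the general level 3.20 and the synthesis level 2.46. The difference between the brown-enriched and the general level was 0.30, 0.72 and −1.76 on the knockout arrays and −0.57, 0.70 and 0.62 on the wild-type arrays, so knockout 3 stood lowest and wild type 1 next. The span of this difference was 2.48, and it was 1.29 without knockout 3. No p is given for these levels.

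**Figure D3:**
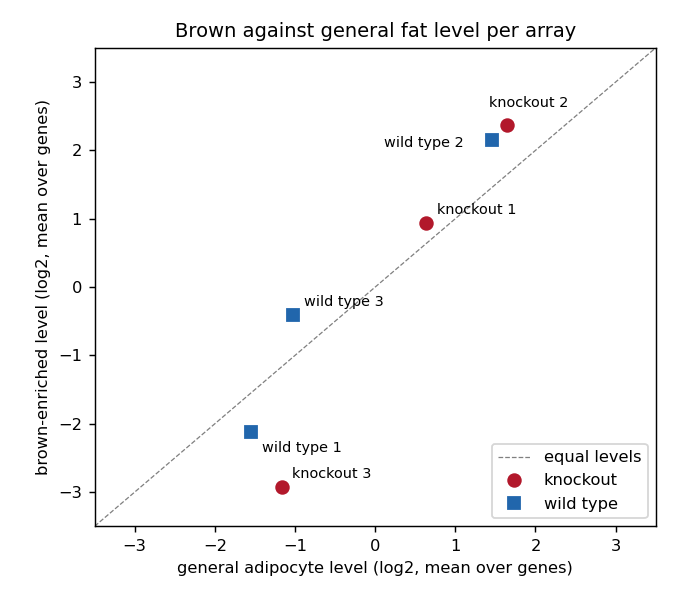
The brown-enriched level (vertical axis, log2) is plotted against the general adipocyte level (horizontal axis, log2), 1 point per array, with a dashed line of equality. Wild type 3 and knockout 3 differ little on the horizontal axis (−1.03 and −1.17) and by far more on the vertical one (−0.41 and −2.93).

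The 3 arrays with a low general level differed among themselves in the brown-enriched genes. Wild type 3 exceeded wild type 1 by at least 1 on the log2 scale in 8 of 11 brown-enriched genes (Cidea, Cox7a1, Cpt1b, Fabp3, Kng2, Plin5, Slc27a2 and Ucp1), in 2 of 15 general genes (Gpd1 and Plin1) and in 0 of 7 synthesis genes, against 1.11% of all tested probes. The median difference was 1.75 in the brown-enriched and 0.53 in the general genes, and −0.02 over all tested probes. Wild type 3 exceeded knockout 3 by at least 1 in the same number of brown-enriched genes, 8 of 11, in 1 of 15 general genes (Gpd1) and in 2 of 7 synthesis genes (Acaca and Scd1), against 7.62% of all tested probes. Lep was lower on wild type 3 by at least that much. Wild type 1 exceeded knockout 3 by at least 1 in 4 of 11 brown-enriched genes (Cidea, Cox7a1, Fabp3 and Ucp1). It did so in 0 of 15 general genes and in Scd1 of the synthesis genes, against 7.81% of all tested probes. Cebpa and Plin4 were lower on wild type 1 by at least 1. Each of these comparisons sets 1 array against another with no replicate, and they were chosen after the values were seen. Comparisons of wild type 3 or wild type 1 with knockout 3 also cross genotypes, which the comparison of the 2 wild-type arrays does not. Knockout 3 also differed from both of these wild-type arrays in the Xist and Eif2s3y signals described above. The part of either difference was not tested.

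**Figure D4:**
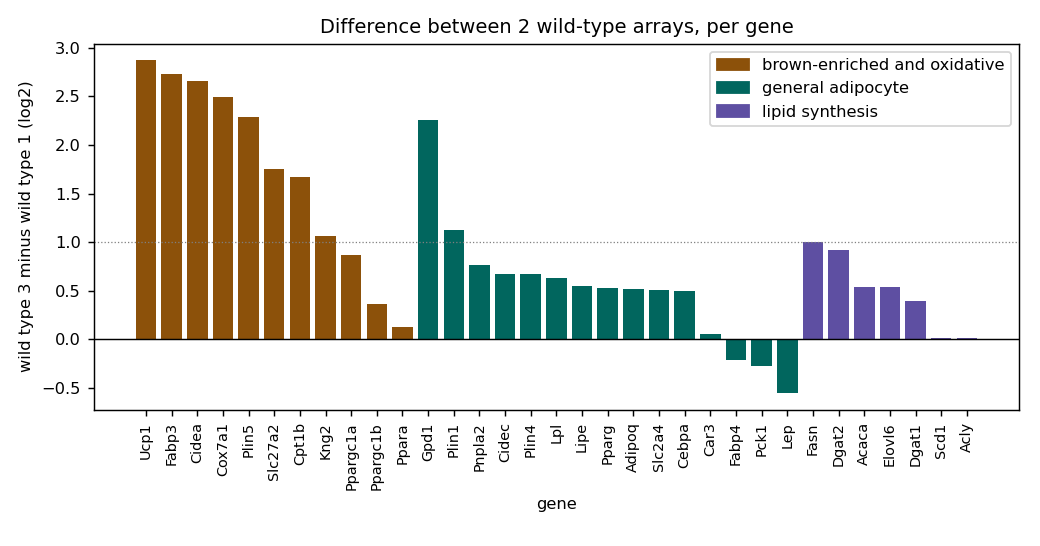
Bars give the difference in normalized log2 signal between wild type 3 and wild type 1 for 33 fat genes, grouped by role, with a dotted line at 1. Bars of 8 brown-enriched genes pass the line, and among the general genes those of Gpd1 and Plin1 do.

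Heart muscle transcripts moved with the fat transcripts, and the level of gland and airway transcripts, though not each gene, moved the other way. The level of 18 heart and striated muscle genes was 0.62, 1.97 and −2.15 on the knockout arrays and −1.99, 2.03 and −0.48 on the wild-type arrays, in the order of the brown-enriched level apart from knockout 2 and wild type 2, which changed places. Of the 20 muscle genes with a probe, 14, 15 and 3 were above background on knockout 1, 2 and 3 and 6, 14 and 15 on wild type 1, 2 and 3. The normalized signals of the list were also summed on the linear scale, with the offset of 16 included. The sum ran from 2967 to 92104 in the knockout and from 1619 to 84803 in the wild type. Myh6, the atrial myosin heavy chain, read 11.46, 13.10 and 4.77 and then 4.87, 13.12 and 7.67 with its brighter probe, and was at background on knockout 3 and wild type 1. Of the 18 muscle genes, 12 were highest on knockout 2 or wild type 2 and 6 on wild type 3 (Acta1, Atp2a1, Myl2, Mylpf, Tnnc2 and Tnnt3), among which Mylpf was lower in the knockout (−2.40, SE 0.31, limma adjusted p = 0.00970). Fabp3, Cox7a1, Cpt1b, Plin5, Ppargc1a and Slc2a4 are also expressed in muscle, while Ucp1 and Adipoq are markers of fat. Fibroblast and endothelial levels had the same 3 highest arrays as the fat transcripts. They were 1.59 and 1.28 on knockout 2, 0.55 and 0.72 on wild type 2, and 0.02 and 0.13 on knockout 1. The level of 5 gland and airway genes was −1.33, −1.96 and 0.79 on knockout 1, 2 and 3 and 0.75, −1.44 and 3.19 on wild type 1, 2 and 3, lowest on the 3 arrays where fat transcripts were high. Scgb1a1, a secretory protein of airway epithelium, read 13.24 on wild type 3. Tg of the same list differed by genotype instead. It read 4.85, 4.69 and 4.81 on the knockout arrays and 6.48, 5.98 and 5.77 on the wild-type arrays. Its difference was −1.29 (SE 0.22, limma adjusted p = 0.0191). The part of these tissues in the fat result was not tested. In such bulk RNA a larger number of adipocytes and more RNA per adipocyte cannot be told apart.

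Between genotypes, none of the tested fat transcripts passed the threshold. Of 35 tested probes of the set, 0 had an adjusted p under 0.05 in the limma fit, and 0 had an unadjusted p under 0.05, against 11.1% of all tested probes called (1559 of 14097). The lowest adjusted p of the set was 0.400 (Pck1, 0.61, SE 0.42). The median difference, knockout minus wild type, was 0.40 for the set and −0.005 over all tested probes, with a higher knockout mean in 29 of 35 probes. That majority rested on single arrays, since it was 12 of 35 without knockout 2 and 15 of 35 without wild type 1. By role the median was 0.14 for the brown-enriched, 0.72 for the general and 0.26 for the synthesis probes. The genotypes overlapped in all 35, and the share over all tested probes is not given here, so this count is a description only.

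The spread within the genotypes set the precision. The median SD between arrays of 1 genotype was 1.75 for the probes of the set and 0.29 for all tested probes, and 31 of the 35 exceeded 1.04, the 95th percentile of all tested probes. The Ucp1 mean was 11.33 ± 4.52 over the knockout arrays and 11.55 ± 2.57 over the wild-type arrays (SD, n = 3 each). The Ucp1 difference was −0.21 (SE 2.39, 95% confidence interval −6.01 to 5.58, limma adjusted p = 0.963), so changes of several log2 units in either direction lie within its interval. Adipoq had means of 13.13 ± 1.48 and 12.15 ± 1.52 (SD, n = 3 each), a difference of 0.98 (SE 0.99, interval −1.40 to 3.36, limma adjusted p = 0.576). Ppargc1a differed by 1.13 (SE 1.32, limma adjusted p = 0.628) and Elovl6 by 0.84 (SE 0.76, limma adjusted p = 0.533), the lowest adjusted p of their groups. These tests do not show that the genotypes have equal fat transcript levels.

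With the replicate number as a block, 0 of the 35 probes were called and 3 had an unadjusted p under 0.05, while 3308 of 14097 tested probes were called. With array weights, whose estimation stopped before it converged, 27 of the 35 were called, together with 10557 of 14097 tested probes (74.9%). Without replicate 2 of both genotypes, 1 of the 35 was called, Cebpa (1.29, limma adjusted p = 0.0450), together with 3999 of 14097 tested probes (28.4%).

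**Figure D5:**
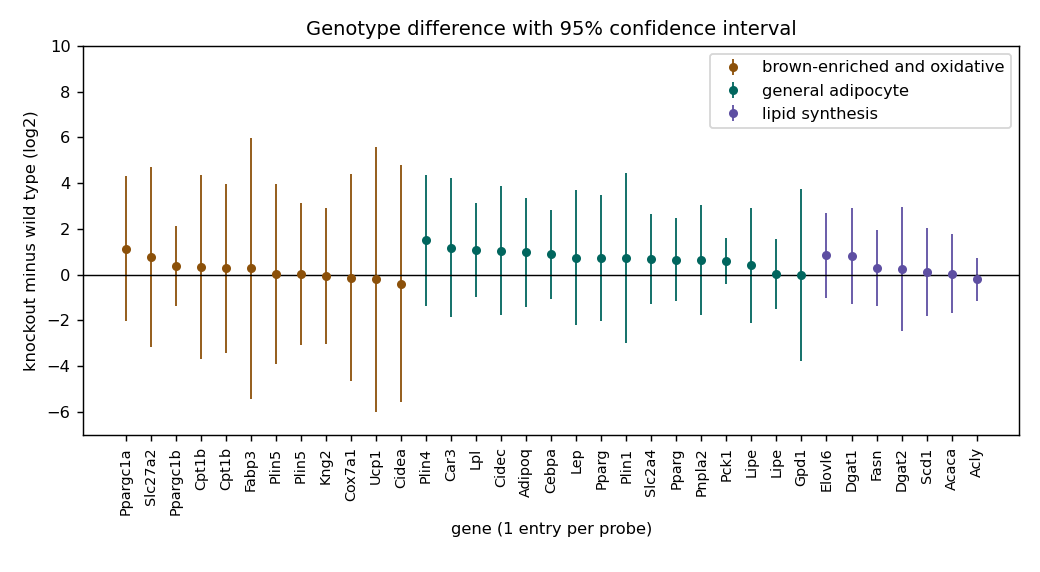
Points give the knockout minus wild-type difference (log2) of each of the 35 tested probes, grouped by role, and the bars its 95% confidence interval from the limma fit over 3 arrays per genotype. Every interval includes 0, and those of Ucp1 and Fabp3 are the widest.

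Genes of fat biology outside the set were read for comparison in the same fit, which called 11.1% of all tested probes. Of 14 tested genes of another brown fat list, 1 was lower and 0 were higher in the knockout. The gene was Fgf21, a hormone of liver and brown fat, which read 6.12, 5.39 and 6.36 on the knockout arrays and 8.75, 7.16 and 8.44 on the wild-type arrays (−2.16, SE 0.47, limma adjusted p = 0.0383). The Fgf21 values of the genotypes did not overlap, and its array order was not that of Ucp1. Of 27 genes of another adipocyte list, 1 was higher and 0 were lower, namely Fabp5, a fatty acid binding protein of epidermis, macrophages and fat. It read 9.75, 9.85 and 10.36 and then 8.65, 7.63 and 8.39 (1.76, SE 0.32, limma adjusted p = 0.0231). Fabp5 lost the threshold when wild type 1, wild type 3, knockout 1 or knockout 3 was left out (limma adjusted p between 0.0581 and 0.0889), and Fgf21 without any single array but wild type 2 (0.0717 to 0.144). Fgf21 also lost it with no background correction and with the authors' processed values, where its difference was −1.14 (limma adjusted p of 0.0542 and 0.0543), and with no detection filter (0.0625). Of 16 fatty acid oxidation genes, 0 were called, with 0 at an unadjusted p under 0.05.

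The array pattern extended to these lists. The 3 highest arrays were knockout 1, knockout 2 and wild type 2 in 8 of 14 genes of the other brown fat list, in 24 of 27 of the other adipocyte list and in 16 of 16 fatty acid oxidation genes. The share over all tested probes was 13.1%. Klb and Npr3 of the other adipocyte list passed the detection filter only through those 3 arrays. Cox8b, a cytochrome c oxidase subunit of brown fat and heart, read 14.09, 15.04 and 10.44 on the knockout arrays and 10.53, 14.93 and 13.004 on the wild-type arrays. Pdk4, a kinase that shifts fuel use from glucose to fat, read 12.96, 14.31 and 8.78 and then 9.63, 13.63 and 11.21. Both had wild type 3 above wild type 1 by more than 1, as in most brown-enriched genes. Cebpb, a transcription factor of early adipocyte differentiation, read 12.65, 14.11 and 11.31 on the knockout arrays and 10.90, 13.44 and 11.65 on the wild-type arrays. The adiponectin receptor Adipor2 had a range of 1.23. Acadm, the medium-chain acyl-CoA dehydrogenase, read 14.20, 15.26 and 12.90 on the knockout arrays and 12.94, 15.15 and 13.46 on the wild-type arrays. Etfa, which passes electrons from those dehydrogenases to the respiratory chain, read 14.70, 15.54 and 14.40 and then 13.45, 15.20 and 13.74.

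Outside the set, the profiles most like the general fat level and most like Ucp1 were found by Pearson correlation over the 6 arrays, among 2083 probes with a range of at least 2. With the general level they were Miga2, Pde1a, Palmd, Acadl, Maob, Hadhb, Prxl2a and Gadd45g, with r between 0.997 and 0.9996. Acadl and Hadhb encode enzymes of mitochondrial fatty acid oxidation, and Maob encodes monoamine oxidase B. Miga2, the first of them, read 10.19, 10.89 and 9.09 on the knockout arrays and 8.84, 10.72 and 9.12 on the wild-type arrays. With Ucp1 they were Kng1, Gpx3, Lyve1, Pdk4, Clstn3, Cox8b, Cdo1 and Ffar4, with r between 0.956 and 0.988. Kng1, the paralog of Kng2, read 10.37, 11.42 and 5.87 and then 7.64, 11.62 and 9.31, and Gpx3, a secreted glutathione peroxidase, read 13.85, 14.74 and 10.24 and then 11.60, 14.55 and 12.49. The 2 groups of 8 genes had no gene in common. The correlations describe the same 6 arrays that define the profiles, from a search over many probes.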

How the data were processed

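Probe intensities (linear scale, not normalized between arrays, per the file headers and their values) and a detection p-value for each were deposited by the authors, with GenomeStudio 2011.1 named in the submitters' processing notes. A second deposited table holds the authors' processed log2 values, whose scale was found from the values: each array has a median of 7.48, higher means brighter, and they lie within 0.005 of quantile-normalized log2 intensities. They were used as an alternative.

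The neqc function of limma 3.58.1 (R 4.3.3) subtracted background estimated from the detection p-values, added an offset of 16, quantile normalized the arrays and took log2. Probes with a detection p under 0.05 on at least 3 of 6 arrays were tested (14097 of 25697), knockout minus wild type, with limma's lmFit and eBayes, and Benjamini-Hochberg adjustment over all of them at a threshold of 0.05. The fit was also run on simulated data. The simulated spread was capped below that of most probes of the set, so that run does not bear on them. Figures and tables used matplotlib 3.10.9, pandas 2.3.3 and numpy 2.4.6 under Python 3.11.15. Differences were taken within a probe, and the number of arrays (3 per genotype) limits the precision. Probe symbols come from the platform annotation.

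The correlation of the arrays' deviations from their genotype mean was 0.104, 0.750 and 0.559 for replicate numbers 1, 2 and 3, each over 0.1, so the numbers were treated as pairing the samples in an alternative fit, although no label states a shared litter or batch, knockout 3 was closer to wild type 1 (0.727) and knockout 1 was about as close to wild type 3 (0.108). The chip of each array is not named in the headers, so no chip block was fitted.

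Genes with a range of at least 2, or past the threshold, are given on every array and others by range or count. Outside lists name up to 4 genes past the threshold and 2 not past it with the highest mean, and each likeness search names 8 genes. The members and all lists were chosen with earlier results of these data known. Alternatives covered normalization, offset, detection filter, replicate block, moderation, array weights, probe summary and left-out arrays.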

Additional observations from a re-analysis of the deposited data

How the results depend on the processing

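The count of set probes called between genotypes was 0 under each normalization, filter, moderation and replicate block (0 of 35 with the block) and without each single array (0 to 0), but 27 with array weights and 1 without both arrays of replicate 2, a fit that called 28.4% of all tested probes. The array weights ran from 0.139 (wild type 2) to 33.3 (knockout 1), so knockout 1 dominated that fit, and the estimation had not converged. The median difference of the set was between −0.22 (without knockout 2) and 1.45 (without knockout 3) with single arrays left out, and 1.28 with array weights. Ucp1 changed sign with no background correction (0.15), with the authors' processed values (0.15), with array weights (2.14), without knockout 3 (2.39) and without wild type 2 (1.02), and was between −1.67 (without knockout 2) and 2.39 with single arrays left out, and the cause was not tested. Of the outside fat genes 2 were called, against 1 with no background correction, the authors' processed values, no detection filter or detection on all 6 arrays at 0.01, 48 with array weights, 6 without both arrays of replicate 2, 0 to 3 without single arrays and 3 with the replicate block. The alternatives on array patterns were chosen after the data were seen, except normalization, the detection filter and the probe summary of the levels. The general level spanned 2.82 to 3.20 without single arrays, and the brown minus general difference 1.29 (without knockout 3) to 2.48. General genes higher by at least 1 on wild type 3 than on wild type 1 numbered 2. With no background correction, an offset of 50 or the authors' processed values they numbered 1. Brown-enriched genes higher by that much numbered 7 there, against 8. The 3 highest arrays were the same in 30 genes under each normalization. Signals near background limit Ppara, Fabp4, Cd36, Retn, Dio2 and Elovl3.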
